A study of Homo sapiens with 4 samples.

Results

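The genes described here are the small heat shock protein genes CRYAB, HSPB1, HSPB8 and HSPB11 and the genes of the BAG cochaperones, BAG1 to BAG6. They were taken by gene symbol from the table of read counts, in which all 10 are listed among 25737 rows. BAG6 is listed on 7 rows, of which 6 have 0 reads in every library, so its values are those of the remaining row. The cells are labelled SKOV-3, a long-used human ovarian carcinoma line. They were given 40 µM RAME, which is rosmarinic acid methyl ester, a derivative of a plant phenol, or the solvent DMSO, and were taken after 24 h. Each condition has 2 libraries, made from polyadenylated RNA by a method that reads each transcript near its 3′ end, so that reads do not scale with its length. Neither the labels nor the methods say that the 2 libraries of a condition came from separate cultures, and the spread on which the p-values rest may therefore be technical and is only that between these libraries.

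Small heat shock proteins are chaperones that work without ATP. They hold partly unfolded proteins in a soluble state until chaperones that use ATP, such as HSP70, can refold them. BAG proteins share a BAG domain, which in most of them binds the ATPase domain of HSP70 and helps it to release its client, and the rest of each protein sets where that client goes. BAG1 is linked to the proteasome and BAG3 to autophagy. HSPB8 and CRYAB can both bind BAG3, which joins them to HSP70. CRYAB, HSPB1 and BAG3 are known targets of the heat shock factor HSF1, which binds repeated units of the bases GAA and their complement TTC. HSPB11 carries the family's name, but its product is IFT25, a subunit of the intraflagellar transport complex of cilia.

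The RAME libraries held 1441575 and 1777782 gene reads and the DMSO libraries 2306379 and 2543566. The 2 libraries of a condition differed by more than counting noise: chi-square over its degrees of freedom was 15.4 for RAME and 28.8 for DMSO. Defining markers of the labelled cell type were largely absent. Of 12 genes listed as markers of SKOV-3 or of ovarian epithelial cancer, 11 had under 10 reads over all 4 libraries and 5 had none, among them ERBB2 and EPCAM. PAX8 was the exception, with 24 and 9 reads in the RAME libraries and 19 and 18 in the DMSO libraries. The summed reads of this list were 25 and 11 in the RAME libraries and 25 and 24 in the DMSO libraries. Among markers of other cells, the 4 fibroblast genes summed to 15 and 20 reads in the RAME libraries and 50 and 64 in the DMSO libraries, most of them from COL1A2, while PDGFRB was at 0. The 4 immune, 3 endothelial and 5 neuronal markers each summed to at most 6 reads in a library, with PTPRC, PECAM1 and CHGA at 0. The part of these markers in the results below was not tested.

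The promoters of the genes are shown first and were searched for the heat shock element, the repeated units that HSF1 binds. Windows of 300 bases, from 250 before to 50 after a transcription start, were taken from RefSeq on GRCh38.p14, whereas the reads had been aligned to hg19. RefSeq windows were matched for 8 of the 10 genes, 11 windows in all, with HSPB11 under its RefSeq symbol IFT25. CRYAB and BAG4 had no matched window. The windows were searched on both strands for a pair of units 2 bases apart, GAANNTTC or TTCNNGAA, each of which is its own reverse complement. A pair was found in 3 of the 8 genes, HSPB1, HSPB8 and BAG2, each in 1 window (3 of 11 windows), against 13.5% of all 35116 windows. None of the 8 genes had 3 units in a row, where 0.49% of all windows did. The windows below are those of BAG3, of the 2 small heat shock genes that held a pair, and of HSPA8, whose product is the HSP70 partner of BAG proteins. Capitals mark the bases of each pair, and neighbouring pairs share a unit where the capitals run on.
BAG3, chr10:119651130-119651429, plus strand: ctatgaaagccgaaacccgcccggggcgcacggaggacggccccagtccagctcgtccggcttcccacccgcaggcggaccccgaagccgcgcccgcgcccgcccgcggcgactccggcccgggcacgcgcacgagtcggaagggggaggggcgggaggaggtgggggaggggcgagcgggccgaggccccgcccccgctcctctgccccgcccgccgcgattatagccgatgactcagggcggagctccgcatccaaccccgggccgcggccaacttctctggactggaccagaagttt
HSPB1, chr7:76302423-76302722, plus strand: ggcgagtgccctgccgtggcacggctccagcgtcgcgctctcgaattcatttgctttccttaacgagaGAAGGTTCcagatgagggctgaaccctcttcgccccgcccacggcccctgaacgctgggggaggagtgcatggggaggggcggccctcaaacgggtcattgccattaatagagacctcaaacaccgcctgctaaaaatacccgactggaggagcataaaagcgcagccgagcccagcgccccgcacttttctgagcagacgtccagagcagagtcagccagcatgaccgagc
HSPB8, chr12:119178681-119178980, plus strand: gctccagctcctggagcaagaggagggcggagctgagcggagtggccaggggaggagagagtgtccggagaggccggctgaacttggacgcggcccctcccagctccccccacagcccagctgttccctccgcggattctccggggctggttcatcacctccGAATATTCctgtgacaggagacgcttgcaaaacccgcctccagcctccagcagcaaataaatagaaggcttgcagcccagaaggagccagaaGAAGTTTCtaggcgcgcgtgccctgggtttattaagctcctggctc
HSPA8, chr11:123062087-123062386, minus strand: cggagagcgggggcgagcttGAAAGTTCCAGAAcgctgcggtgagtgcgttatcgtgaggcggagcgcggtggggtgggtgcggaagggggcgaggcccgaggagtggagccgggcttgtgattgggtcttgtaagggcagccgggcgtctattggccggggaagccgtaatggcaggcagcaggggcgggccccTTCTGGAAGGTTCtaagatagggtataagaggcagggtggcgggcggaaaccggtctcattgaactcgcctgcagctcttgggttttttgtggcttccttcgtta
The window of BAG3 had no whole pair and a GC content of 75.3%, against a median of 58.7% over all windows. Its end matches GAANNTTC up to the last letter, and the base that follows lies outside the window and was not searched. HSPB1 had 1 pair, which began 182 bases before the start site. HSPB8 had a pair that began 88 bases before the start site and another at base 5 after it. HSPA8 had 4 pairs, which form 2 runs of 3 units, the nearer of them beginning 55 bases before the start site. Windows of 11 genes of HSP70 partners and selective autophagy, described further below, were searched as well, HSPA8 among them. A pair was found in 5 of these 11 genes (6 of 19 windows, or 31.6%): HSPA1A, HSPA1B, HSPA8, DNAJB1 and DNAJB6. A run of 3 units was found in 2 of the 11, HSPA8 and DNAJB6. Whether a match goes with a change in reads was not tested. A match describes these letters only. Units that differ from GAA or TTC by a base were not counted, so the lack of a match does not mean that no element is present. It also says nothing of elements outside the window.

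CRYAB and BAG3 were higher in cells given RAME, by 23.5-fold and 10.2-fold, and BAG5 and BAG6 did not pass the test. Of the 10 genes, 4 had enough reads to be tested across all genes with edgeR, 5 had between 1 and 9 reads in total and HSPB11 had none. At an adjusted p under 0.05, 2 of the 4 were called higher, where 6.46% of all 4517 genes tested were called higher, 7.08% lower and 13.5% in either direction. The same test called none of the 4 lower. BAG6 was lower at an unadjusted p under 0.05, and DESeq2 and limma-voom also called none of the 4 lower. In bulk RNA, a change in the number of cells that hold a transcript and a change in its level per cell cannot be told apart. Levels are given as CPM, which are reads set relative to the library's sum over the genes tested and scaled by TMM. TMM is a method that sets the libraries to the same level over the bulk of the genes.

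**Figure D1:**
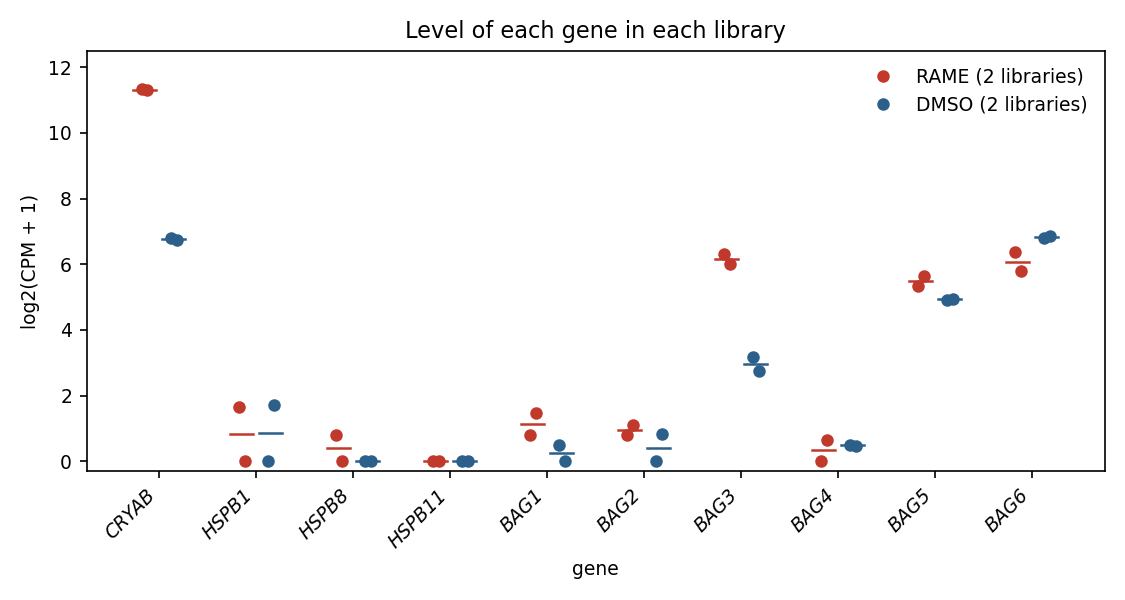
Level of each gene as log2(CPM + 1) in each of the 4 libraries, with RAME on the left and DMSO on the right of each pair and a line at the mean of 2 libraries. CRYAB and BAG3 stand apart between the conditions, at 2518 to 2568 against 107 to 109 CPM and at 63.4 to 77.7 against 5.77 to 7.99 CPM, and 6 of the 10 genes lie near 0.

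CRYAB encodes αB-crystallin, a small heat shock protein first known from the eye lens, which also guards desmin and actin filaments in muscle. It had 3536 and 4329 reads in the RAME libraries, against 260 and 277 in the DMSO libraries, or 2568 and 2518 CPM against 109 and 107 CPM. The 2 libraries of each condition lay close together and far from those of the other. The level of CRYAB was 2543 ± 35.6 CPM with RAME and 107.9 ± 1.89 CPM with DMSO (SD, n = 2 each). On the log2 scale it was 4.56 ± 0.30 (SE) higher with RAME, with an edgeR adjusted p of 1.99e-05, the 14th largest rise among the 4517 genes. By reads it was gene 65 and gene 66 of its library with RAME, and gene 1269 and gene 1294 with DMSO. It took 0.245% and 0.244% of all reads in the RAME libraries, against 0.0113% and 0.0109% in the DMSO libraries. HSPB2, another small heat shock gene next to CRYAB in the table, had 0 and 0 reads with RAME and 0 and 2 with DMSO, and the readthrough gene HSPB2-C11orf52 had none. C11orf1, on its other side, had no reads either. The difference in CRYAB was as large without any 1 library, at log2 fold changes of 4.53 to 4.56. Such a fit leaves 1 condition with a single library, which is then assumed to vary like the 2 of the other condition.

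HSPB1 encodes HSP27, a small heat shock protein that p38 signalling phosphorylates through MAPKAPK2. It had 3 and 0 reads in the RAME libraries and 0 and 6 in the DMSO libraries. In each condition 1 library had no read, so the conditions overlapped. Its summed reads, set against the summed library totals without TMM scaling, gave a ratio of RAME over DMSO of 0.753. The exact 95% binomial interval was 0.122 to 3.53, so a change of several fold was not detectable at this depth. HSPB8, the partner of BAG3 in selective autophagy, had a single read, in RAME library 1. HSPB11 had 0 reads in every library, which allows up to 0.932 CPM over the RAME libraries and 0.619 CPM over the DMSO libraries at a floor of 3 reads a condition. The floors are set against the summed library totals of all genes, without TMM scaling. These intervals and floors cover counting error only. LRRC42 and YWHAG, which stand next to HSPB11 and HSPB1 in the table, had 742 to 991 and 332 to 839 reads. Whether the annotation, the counting or the identity of the cells had a part in these near-zero counts was not tested, and zeros are given only as reads listed in the table. By the reads listed, CRYAB made up 99.9% and 100% of the reads of the 4 small heat shock genes in the RAME libraries and 100% and 97.9% in the DMSO libraries.

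BAG3 couples HSP70 and small heat shock proteins to autophagy and is itself induced by protein stress. It had 107 and 109 reads in the RAME libraries, against 19 and 15 in the DMSO libraries, or 77.7 and 63.4 CPM against 7.99 and 5.77 CPM. Both RAME libraries lay far above both DMSO libraries. The means were 70.6 ± 10.1 CPM with RAME and 6.88 ± 1.57 CPM with DMSO (SD, n = 2 each). The rise was 3.35 ± 0.45 on the log2 scale (SE), with an edgeR adjusted p of 0.00186, the 42nd largest rise among the genes tested. The neighbours of BAG3 in the table were TIAL1, with 624 and 879 reads in the RAME libraries and 1344 and 1203 in the DMSO libraries, and INPP5F, with at most 5 reads in a library. The call held without any 1 library, at log2 fold changes of 3.15 to 3.57.

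BAG5 has several BAG domains and acts as an exchange factor for HSP70. It had 54 and 84 reads in the RAME libraries and 69 and 78 in the DMSO libraries, or 39.2 and 48.9 CPM against 29.0 and 30.0 CPM. The RAME libraries lay above the DMSO libraries in CPM, and lay further from each other. Its log2 fold change of 0.58 ± 0.39 (SE) had an edgeR adjusted p of 0.344, so a change was not shown. BAG6, also called BAT3, holds exposed membrane segments of new proteins in the cytosol and passes them to the membrane insertion machinery or to degradation. It had 112 and 94 reads in the RAME libraries and 264 and 299 in the DMSO libraries, or 81.4 and 54.7 CPM against 111 and 115 CPM. Both RAME libraries lay below both DMSO libraries, with a wider gap between themselves. Its log2 fold change of −0.74 ± 0.33 (SE) had an edgeR adjusted p of 0.153. With RAME replicate 1 left out it came to −1.05, with RAME replicate 2 left out to −0.51, and it was called in neither case. BAG6 was called lower only in a fit with the replicate numbers crossed as a block, an alternative chosen after seeing the data.

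The other BAG genes were close to the limit of detection. BAG1, the founding member of the family, had 1 and 3 reads in the RAME libraries and 1 and 0 in the DMSO libraries. Its ratio of summed reads over library totals, without TMM scaling, was 6.03 with an interval of 0.596 to 297. BAG2, an inhibitor of the ubiquitin ligase CHIP, had 1 and 2 reads with RAME and 0 and 2 with DMSO. BAG4, also called SODD, a silencer of death receptors, had 0 and 1 reads with RAME and 1 and 1 with DMSO. None of the 5 genes with so few reads was called when all 11683 genes with a read were fitted together by edgeR, where 6.74% were called in either direction. Their adjusted p-values ran from 0.733 to 0.947, and none had an unadjusted p under 0.05. DESeq2 and limma-voom, also fitted to all genes with a read, called none of the 5 either.

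Within the BAG family, the make-up of the reads differed between the conditions. Since reads of 1 library are compared with each other here, these shares do not depend on how the libraries were scaled. BAG3 took 38.9% and 37.2% of the reads of BAG1 to BAG6 in the RAME libraries, against 5.37% and 3.80% in the DMSO libraries. The exact 95% binomial intervals were 33.1 to 44.9% and 31.7 to 43.0% with RAME and 3.26 to 8.25% and 2.14 to 6.19% with DMSO. BAG6 took 40.7% and 32.1% with RAME, against 74.6% and 75.7% with DMSO. The share of BAG5 was 19.6% and 28.7% with RAME and 19.5% and 19.7% with DMSO, so RAME library 1 lay beside the DMSO libraries. BAG6 was thus the most read gene of the family in RAME library 1 and in both DMSO libraries, and BAG3 in RAME library 2, although the intervals of BAG3 and BAG6 overlapped in both RAME libraries.

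**Figure D2:**
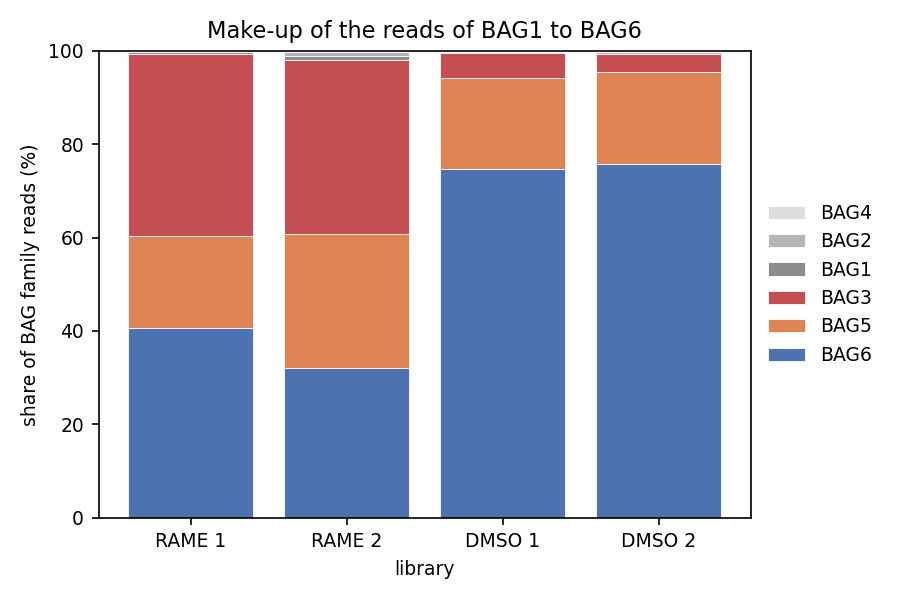
Share of each gene in the reads of BAG1 to BAG6, in percent, in each library, with the RAME libraries on the left. BAG3 takes 38.9% and 37.2% with RAME against 5.37% and 3.80% with DMSO, and BAG1, BAG2 and BAG4 form only a thin band at the top.

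Ratios of reads within a library show the same shift per gene pair. There were 0.955 and 1.16 reads of BAG3 per read of BAG6 in the RAME libraries, against 0.0720 and 0.0502 in the DMSO libraries. On the log2 scale the mean of this ratio was 0.07 ± 0.20 with RAME and −4.06 ± 0.37 with DMSO (SD, n = 2 each), a difference of 4.13. BAG3 over BAG5 was 1.98 and 1.30 with RAME and 0.275 and 0.192 with DMSO. BAG5 over BAG6 was 0.482 and 0.894 with RAME and 0.261 and 0.261 with DMSO. The rise of CRYAB was larger than that of BAG3, since CRYAB had 33.1 and 39.7 reads per read of BAG3 with RAME and 13.7 and 18.5 with DMSO. In each of these 4 ratios both RAME libraries lay above both DMSO libraries. The 4 ratios share genes and restate the changes given above, so they are not separate results. How often other pairs of genes separate in this way was not counted. With 2 libraries a condition, the smallest p of an exact two-sided permutation test is 0.333, so the differences are set against the spread between libraries only.

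**Figure D3:**
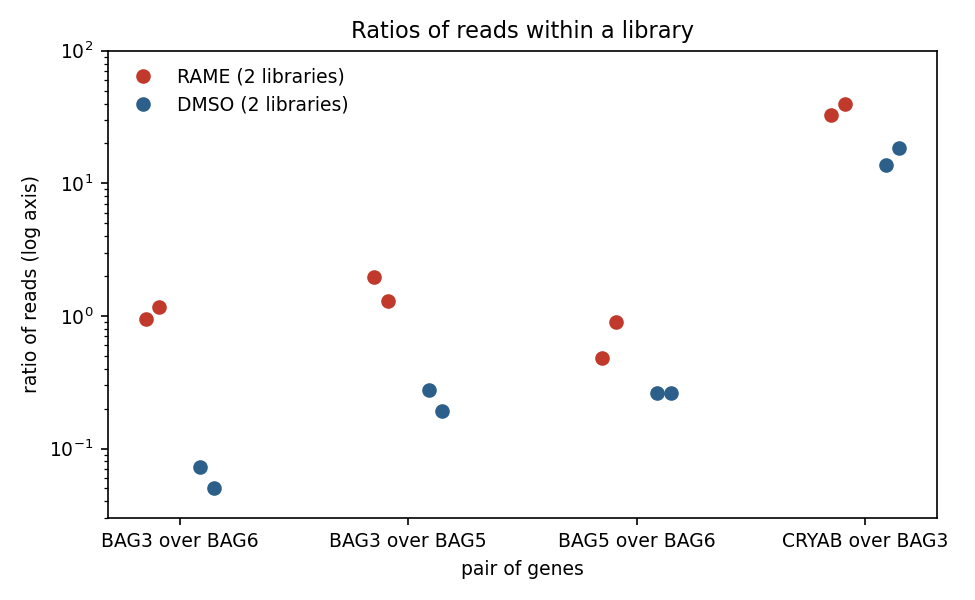
Ratio of the reads of 2 genes within each library, on a log axis, for 4 pairs of genes, with RAME on the left and DMSO on the right. The BAG3 over BAG6 ratio lies at 0.955 and 1.16 with RAME against 0.0720 and 0.0502 with DMSO.

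Genes that work with these proteins were read from further lists. The 13 genes of HSP70 partners and of selective autophagy had 9 tested members, of which 2 were called higher and none lower. Over all genes tested, 6.46% were called higher and 7.08% lower. At an unadjusted p under 0.05, 3 of the 9 were higher and none lower, and DESeq2 and limma-voom also called none lower. The share of all genes tested at that unadjusted threshold was not counted, so the 3 of 9 cannot be set against it. Their median log2 fold change was 0.96, against 0.01 over all genes tested. HSPA8, the constitutive HSP70 that BAG proteins bind, had 107 and 193 reads in the RAME libraries and 19 and 14 in the DMSO libraries. Its rise of 3.82 ± 0.44 on the log2 scale (SE) had an edgeR adjusted p of 0.000611, and pseudogenes that could share reads make this value uncertain. DNAJB1, an HSP40 that delivers clients to HSP70, had 47 and 59 reads with RAME and 14 and 34 with DMSO (log2 fold change 1.84 ± 0.52, SE, with an edgeR adjusted p of 0.0399). That call was lost without DMSO replicate 1 (1.36, adjusted p = 0.132), RAME replicate 1 (1.83, adjusted p = 0.0859) or RAME replicate 2 (1.79, adjusted p = 0.0750), and the value was 2.55 without DMSO replicate 2. The inducible genes HSPA1A and HSPA1B had at most 4 reads in a library. STUB1, the gene of the ubiquitin ligase CHIP, had a log2 fold change of 0.96 and SQSTM1, an autophagy receptor gene, of 1.67, and neither was called (adjusted p = 0.205 and 0.117 from edgeR). Among the other uncalled genes, HSPA4, an HSP110 chaperone gene, had a log2 fold change of −0.47, the HSP40 gene DNAJB6 of −0.49 and the lysosomal membrane gene LAMP2 of −0.84, while MAP1LC3B had 0.49 and FLNA 1.28.

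**Figure D4:**
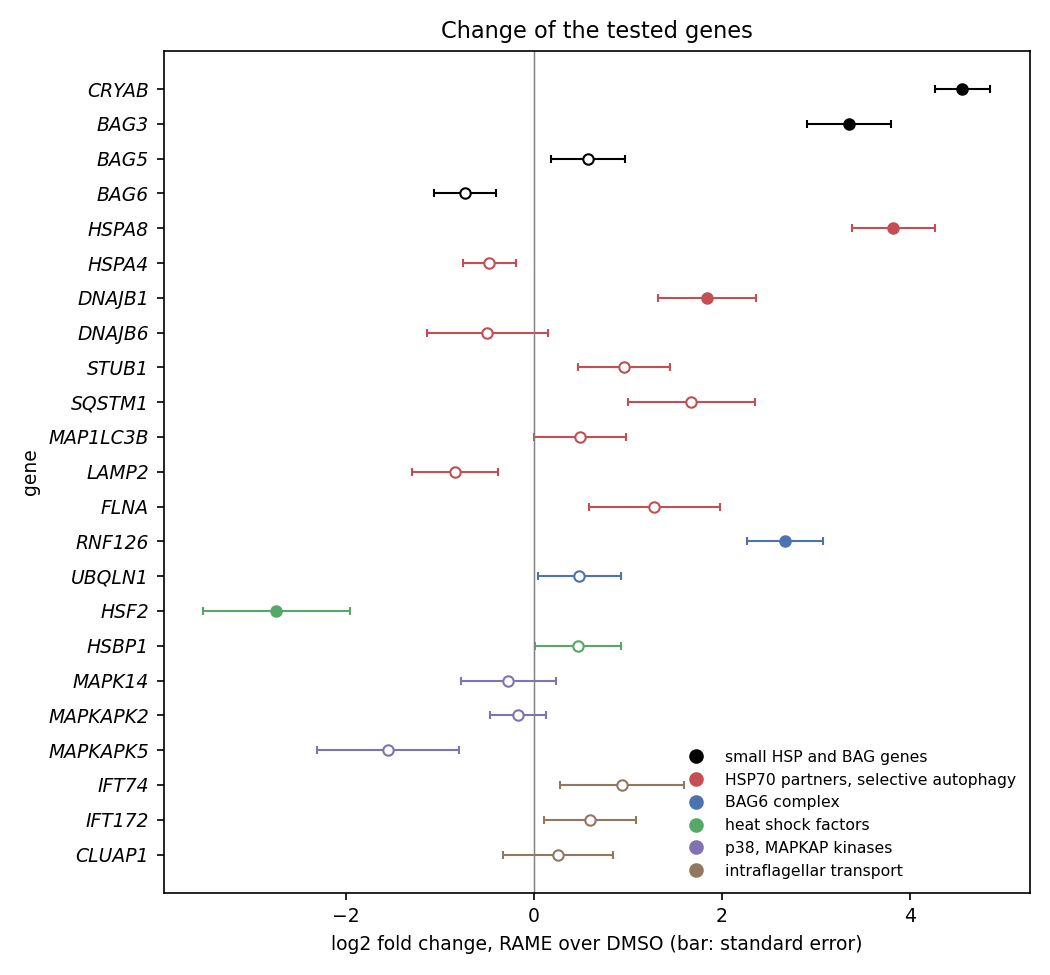
Log2 fold change of RAME over DMSO with its standard error for the 4 tested small heat shock and BAG genes and the tested genes of their partner lists. Filled points have an adjusted p under 0.05 in edgeR, and CRYAB at 4.56, HSPA8 at 3.82 and BAG3 at 3.35 lie farthest to the right.

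Of 9 genes of the BAG6 complex and of tail-anchor insertion, 2 were tested and 1 was called higher (median log2 fold change 1.58). Of all genes tested, 6.46% were called higher and 7.08% lower. The gene called here was RNF126, the ubiquitin ligase that BAG6 recruits to stray membrane proteins. It had 124 and 148 reads in the RAME libraries and 25 and 44 in the DMSO libraries, while BAG6, which was lower, was not called. The rise of RNF126, 2.67 ± 0.41 on the log2 scale (SE), had an edgeR adjusted p of 0.00362. Its pseudogene RNF126P1 had 5 and 14 reads with RAME and 3 and 5 with DMSO. SGTA, a cochaperone that hands clients to BAG6, had no reads in any library. Of 5 genes of heat shock factors and their binding protein HSBP1, 2 were tested and 1 was called lower (median −1.13). HSF2, a partner of HSF1, had 1 and 8 reads with RAME and 63 and 31 with DMSO (log2 fold change −2.74 ± 0.78, SE, with an edgeR adjusted p of 0.0417). The call was lost without DMSO replicate 1 (−2.08, adjusted p = 0.193), without RAME replicate 1 (−2.03, adjusted p = 0.155) and in limma-voom (adjusted p = 0.0897), and the value was −4.64 without RAME replicate 2. HSF1 itself had 0 and 2 reads with RAME and 1 and 0 with DMSO.

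None of the 3 tested p38 and MAPKAP kinases (median −0.27) was called by edgeR, DESeq2 or limma-voom, nor had any an unadjusted p under 0.05. The same held for the 3 tested genes of intraflagellar transport complex B (median 0.60). IFT27, the direct partner of HSPB11 in that complex, had 1 and 1 reads with RAME and 0 and 0 with DMSO. The 7 other small heat shock protein genes, from CRYAA to ODF1, summed to 1 and 1 reads with RAME and 0 and 2 with DMSO, and none could be tested.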

How the data were processed

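RNA-sequencing counts of 2 RAME and 2 DMSO libraries were used. The authors made QuantSeq 3′ libraries, sequenced single ends of 75 bases and used Bowtie2 for alignment. The build in the submitters' processing notes is hg19. For the aligner version, annotation, counting tool and strand setting, the entry is "not given in the sources used here". Genes that overlap, on either strand, may therefore share reads. Raw counts of reads, as deposited, were the input here. The authors' normalized log2 values, group means, fold changes and p-values were not used.

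Counts were tested in edgeR 4.0.16 (R 4.3.3) after filterByExpr (min.count 10, min.total.count 15), TMM scaling and glmQLFit, with Benjamini-Hochberg adjustment over all 4517 genes kept. The SE of a log2 fold change was obtained from it and the square root of its F statistic. Genes below the filter were fitted with all genes that had a read. Intervals are exact (Clopper-Pearson) at 95% and treat each read as 1 molecule, although no source mentions molecular identifiers. Motifs were counted in RefSeq windows (GRCh38.p14), and a search of protein motifs was not run. Alternatives were DESeq2 1.42.0, limma-voom (limma 3.58.1), other scalings, no filter, thinning to the smallest library, a replicate block and leaving out each library. The code was tested on simulated data.

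The genes and the lists (other small heat shock proteins, HSP70 partners, BAG6 complex, heat shock factors, p38 kinases, intraflagellar transport, cell markers) were chosen with earlier results of these data known. From each list, at most 4 called genes are named, if they average 20 reads or more. Other list genes given with values (HSPA1A, HSPA1B, the uncalled HSP70 partners, SGTA, HSF1, IFT27 and the markers) were chosen after their values were seen. A further list is not reported here.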

Additional observations from a re-analysis of the deposited data

How the results depend on the processing

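CRYAB and BAG3 were called higher under every alternative run, with log2 fold changes of 4.46 to 4.67 and 3.15 to 3.64, and the largest adjusted p was 4.70e-05 and 0.00374. BAG5 was never called (0.37 to 0.72, adjusted p 0.161 to 0.766). BAG6 was called only with a crossed replicate block, below. Without any 1 library, 2 of the 10 genes were called higher and 0 lower, and 0 of those below the filter. Upper quartile scaling moved the median of all genes to 0.12, against 0.01 with TMM.

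Over all genes, 292 were called higher and 320 lower. Leaving out 1 library gave 143 to 418 higher and 166 to 569 lower, with 191 and 177 without DMSO replicate 1 and 143 and 166 without RAME replicate 1. Limma-voom called 196 lower and the fit with no filter on reads 481 lower. The cause was not tested. Deviations of libraries with the same number correlated at −0.335 over 4517 genes. The labels do not say whether the numbers pair the samples, and a correlation of counts cannot settle it. With a replicate block CRYAB had a log2 fold change of 4.56 and BAG3 of 3.36, and no member changed its call. With the numbers crossed as a block, an alternative added after seeing the data, 873 genes were called higher and 914 lower, 1 member, BAG6, was called lower, and of the HSP70 partners 4 were called higher and 2 lower. Of 52 values computed for the 4 named genes of the other lists, 46 kept their call, 6 lost it and none changed direction. HSPB1, HSPB8, HSPB11, BAG1, BAG2 and BAG4 had 0 to 9 reads over the 4 libraries, and differences in them were not detectable with so few.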
